A study of Mus musculus with 4 samples.

Results

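The cytotoxic genes described here are Gzma, Gzmb, Prf1, Fasl, Ctsc, Serpinb9 and Serpinb6a, and they were taken by symbol. The choice of these genes was made with earlier results of these data known. Every probe set annotated with one of these 7 symbols alone was used. There were 8 such probe sets for 6 of the genes, against 13069 gene probe sets on both chips. The A chip held 6 of them, for Gzmb, Fasl, Ctsc (2 probe sets), Serpinb9 and Serpinb6a, and the B chip held 2, for Gzma and Serpinb9. Prf1, which encodes perforin, was listed for no probe set in the annotation used and is not analysed here.

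Killer lymphocytes store granzymes in secretory granules together with perforin, which opens the membrane of the target cell to them. Granzymes are made as inactive precursors, and cathepsin C, the product of Ctsc, removes a short peptide from their start to activate them. Granzyme A cuts after basic residues and granzyme B after aspartate, which lets granzyme B act on caspases. Fas ligand, the product of Fasl, kills by a separate route through the receptor Fas. Intracellular serpins trap proteases that leak into the cell that made them: Serpinb9 inhibits granzyme B in the mouse, and the human counterpart of Serpinb6a inhibits the granulocyte protease cathepsin G. Resting CD8 T cells are known for low granzyme content, which rises with activation, and natural killer (NK) cells carry granzymes without prior stimulation.

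The study compared memory and naive CD8 T cells that all bear the B6.2.16 receptor, a transgene specific for the HY antigen of male mice. To obtain memory cells, spleen cells from female B6.2.16 donors on a RAG1-deficient background were grown for 4 days in the presence of HY peptide and given to RAG1-deficient female hosts. The cells were taken back from spleen and lymph nodes 200 days later with magnetic beads, and their purity was stated to exceed 80%. Naive cells were lymph node cells of female, RAG1-deficient B6.2.16 animals, with a purity stated to exceed 85%. All donors and hosts thus lacked RAG1, a recombinase needed to form T and B cell receptors, and animals without it still have NK cells, macrophages and granulocytes. Organ, culture, transfer, time and sorting differed together between the groups and cannot be told apart. The labels give neither the ages nor the numbers of the animals.

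Each population was hybridised to 1 A chip and 1 B chip of a mouse Affymetrix set, which gave 4 arrays and no replicate on either chip. No spread between samples, standard error or p-value could therefore be given, and each difference below compares 1 memory array with 1 naive array. The values were intensities per probe set, of which 20.0% to 35.6% per array were negative. Noise was judged from the negative values, and a floor of 423 on the B chip marked the size that 95% of them did not exceed on its noisier array. A call required a ratio of at least 2-fold and a brighter array at 2 floors (846) or more. Memory and naive B arrays had a Spearman correlation of 0.85 over 6540 gene probe sets, and the A arrays one of 0.10 over 6529. Across 398 genes present on both chips, memory A and memory B correlated at 0.45, but naive A and naive B at 0.072. Probe sets are not independent replicates, so these are descriptions. The naive A values hardly followed the gene names they are listed for. Members on the A chip are therefore given as levels on the memory array, with no comparison between the groups.

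Gzma, a granzyme with tryptic activity, was the only granzyme with a reading above noise on the arrays used. Its probe set on the B chip had a deposited intensity of 1415 on the memory array and 2827 on the naive array. After both arrays were scaled to a common trimmed mean, the values were 1405 in memory and 2848 in naive. Both lay well above the floor of 423, at percentile 96.1 of the gene probe sets on the memory array and percentile 98.1 on the naive array. The memory preparation thus carried the lower granzyme A signal, and the transcript was among the brighter ones in both preparations. The ratio was 2.03-fold lower in memory, a log2 ratio of -1.02, which only just passed 2-fold.

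Among all gene probe sets on the B chip, 113 of 6540 (1.73%) were called lower in memory and 67 (1.02%) higher. Of the 522 that were bright enough to be called, as Gzma was, 21.6% were lower and 12.8% higher. Calls of this kind were therefore common among bright probe sets. The split was 48 higher and 45 lower without the sequence-family class, in which related genes share probes. It also depended on the scaling, with 94 higher and 91 lower under median-ratio scaling, 100 and 73 under quantile normalization, and 76 and 54 under intensity-dependent normalization. The median log2 ratio of the 696 probe sets above the floor on both arrays was -0.15. For the 56 of these whose geometric mean level lay within 1.2-fold of that of Gzma, a window chosen with the data in view, the median was 0.050, and 2 were called lower and 7 higher. The ratio of Gzma lay between -1.02 and -0.87 under 6 other settings and was negative in each, and it missed 2-fold under 4 of them: -0.9985 without scaling, -0.87 with median-ratio scaling, -0.93 after quantile normalization and -0.90 after intensity-dependent (lowess) normalization. The floor played no part, since halving or doubling it left the ratio at -1.02.

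**Figure D1:**
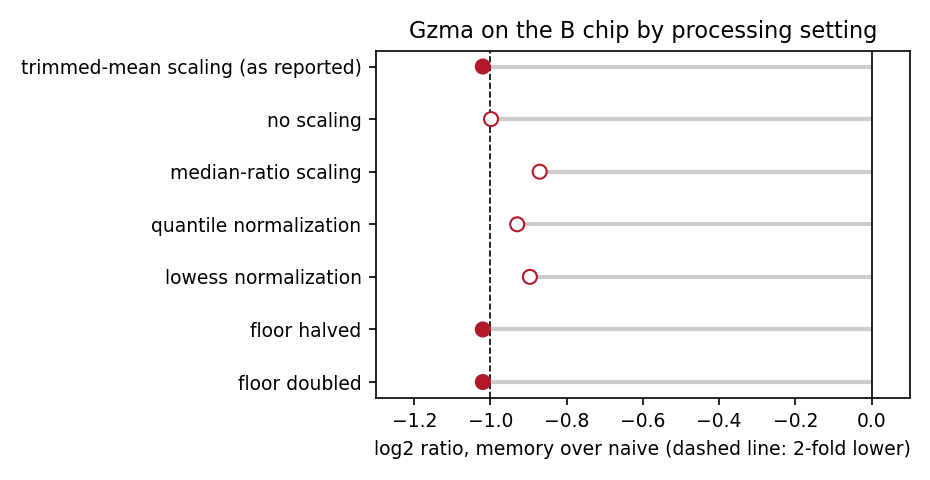
Log2 ratio of the memory over the naive intensity of Gzma on the B chip (horizontal axis) under each processing setting (rows), 1 array per group; filled points reach 2-fold lower (dashed line) and open points do not. The ratio is -1.02 as reported and stays negative in every row, with 4 open points between -0.9985 and -0.87.

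Receptors of NK cells, which also carry granzyme A, read under the floor on the memory B array. This chip held 4 probe sets of 3 NK genes of the 17 listed, all inhibitory or activating receptors of the Ly49 family. Klra4 read 102 in memory and 548 in naive, and Klra8 read 279 in memory and 516 in naive. Both memory values lay under the floor, so their log2 ratios of -0.37 and -0.29 are bounds, and neither reached the 846 needed for a call. With the floor halved, Klra4 was called lower at -1.375. The probe sets of Klra9 read 104 and 161 in memory and 285 and 405 in naive, all under the floor. The summed level of the 4 probe sets was 646 in memory and 1754 in naive. It includes readings under the floor, among them all those in memory, so it is not a measured difference. All 4 belong to a class whose probes match several related genes, so they do not tell the Ly49 receptors apart. On the memory A array 2 of 7 probe sets of the NK list were above its noise limit of 184, against 26.7% of all gene probe sets. They were Fcgr3, an Fc receptor that macrophages carry as well, at 784 and Klra7 at 283. Klrb1c, which encodes the NK1.1 antigen, read 18 and Klrb1a read -3, both under the limit. In a preparation read as bulk RNA, fewer granzyme-bearing cells and less Gzma RNA per cell cannot be told apart. The part of NK cells in the Gzma ratio was not tested.

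**Figure D2:**
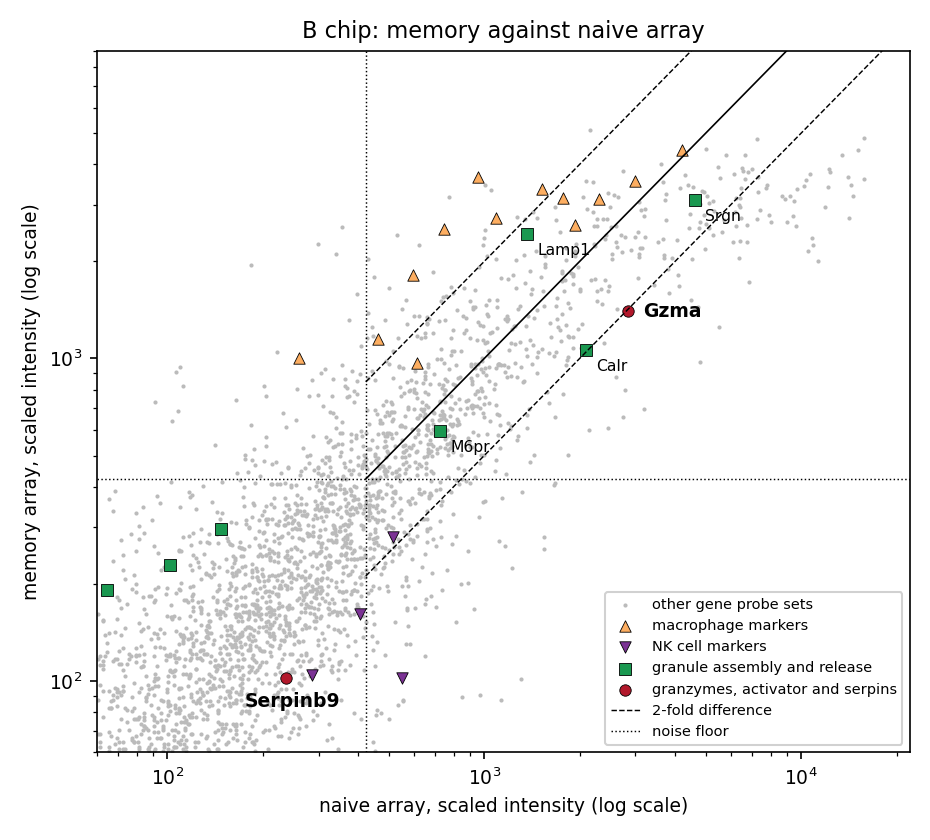
Scaled intensity on the memory array (vertical axis, log scale) against the naive array (horizontal axis, log scale) for the 2495 gene probe sets of the B chip that read at least 60 on both arrays; symbols mark Gzma, Serpinb9 and members of 3 gene lists, the solid line equality, dashed lines 2-fold and dotted lines the floor of 423. Gzma lies on the lower 2-fold line, Serpinb9 lies under the floor on both arrays, and the macrophage markers lie on or above the line of equality.

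The other granzymes were not above noise. Granzyme B is the caspase-activating member, and Gzmb read 151 on the memory A array, under the limit of 184. Gzmc, which neighbours Gzmb in the granzyme cluster, read 11, Gzmd read -13 and Gzmm, a granzyme abundant in NK cells, read 44. On the B chip Gzmg read 65.5 in memory and 105 in naive, both under the floor. Of the 10 granzyme genes listed, 6 had a probe set, and 1 of them (Gzma) was above noise. The other 4 had no probe set listed, among them Gzmk, the neighbour of Gzma. Of all gene probe sets, 26.7% were above the limit on the memory A array. On the B chip 1056 of 6540 were above the floor on 1 array or both. With 6 genes, the count above noise does not set the granzymes apart from other genes. By the RefSeq gene table, Gzmb, Gzmc, Gzmd and Gzmg lie in 1 run of granzyme genes on chromosome 14, and Gzma lies apart from them on chromosome 13. A signal under the limit says that a level was not detectable on this array, not that the transcript was absent.

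Cathepsin C gave the highest reading of the members on the memory A array, and its 2 probe sets disagreed. The probe set u89269_s_at read 1163, which is 6.32 times the limit and percentile 96.9 of the array. The probe set AA288280_s_at read 149, under the limit. Which of them follows the transcript was not tested. The higher one was above the limit also when the limit is doubled.

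Both intracellular serpins were above the limit on the memory A array. Serpinb9, the inhibitor of granzyme B, read 484, or 2.63 times the limit, at percentile 89.8. Serpinb6a read 395, or 2.15 times the limit, at percentile 87.1. Both stayed above it when it was doubled. By the RefSeq gene table the pair lies in the same cluster of serpin genes on chromosome 13.

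Serpinb9 was also the only member read on both chips. Its B-chip probe set gave 102 in memory and 237 in naive, both under the floor of 423, so it was not well above background on either array and no ratio is given. With the floor halved the naive value alone lay above it, and the log2 ratio became a bound of -0.16. Only the A-chip probe set was above noise in memory, and it has no usable naive counterpart. Which probe set follows the transcript was not tested. The memory preparation held a detectable Serpinb9 signal by the A-chip probe set alone, and a difference from naive was not detectable with these arrays.

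Fas ligand was near the limit. Fasl read 265 on the memory A array, 1.44 times the limit of 184 and percentile 80.5, and it fell below the limit of 296 that the noisier A array sets. Its receptor Fas was under the limit with both probe sets, at 93 and 36. In all, 4 of the 6 member probe sets on the A chip were above the limit (Ctsc, Serpinb9, Serpinb6a and Fasl), against 26.7% of the 6529 gene probe sets. With 6 probe sets of 5 genes this share is a description of 1 array.

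**Figure D3:**
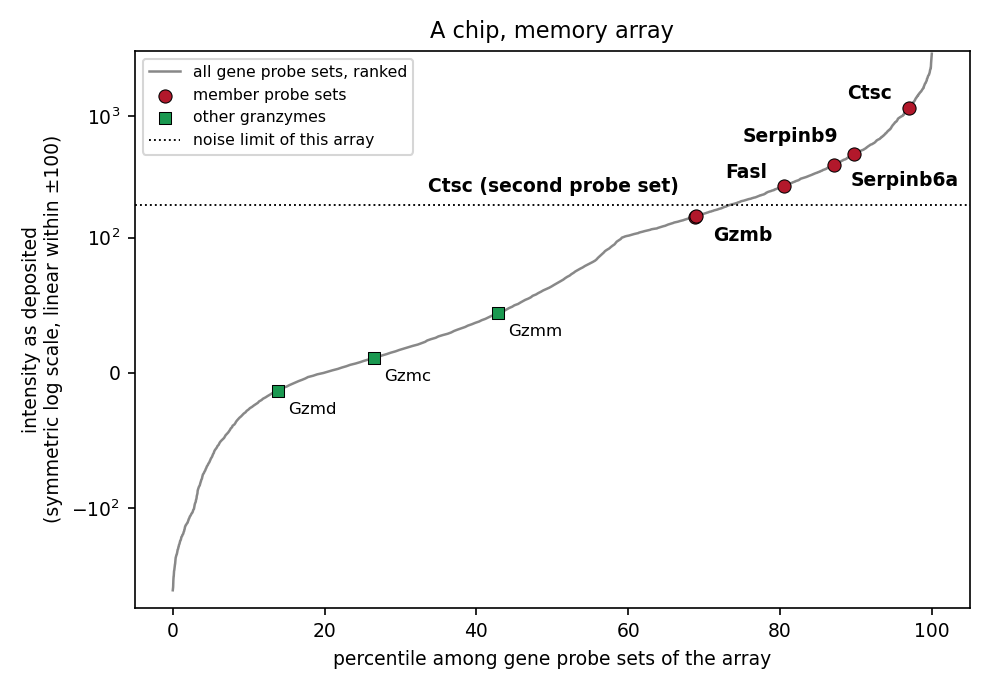
Deposited intensity on the memory A array (vertical axis, symmetric log scale, linear within ±100) against percentile among its 6529 gene probe sets (horizontal axis); circles are the 6 member probe sets, squares the other granzymes, and the dotted line the noise limit of 184. Ctsc, Serpinb9, Serpinb6a and Fasl lie above the limit, and Gzmb, the second Ctsc probe set (overlapping Gzmb) and Gzmc, Gzmd and Gzmm lie under it.

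The genes that pack and release granules showed no call on the B chip, where only Srgn, Lamp1 and Calr reached the 846 needed. Of all probe sets that bright, 21.6% were called lower and 12.8% higher, so these few do not set the list apart. Of 10 probe sets 4 were above the floor, each on both arrays. Their median log2 ratio was -0.43 as reported, against -0.12 for all 1056 probe sets above the floor on 1 array or both. This list median depends on the scaling, since the ratio of Srgn, which helps set it, changed sign under other scalings. Srgn, the proteoglycan that holds granzymes in the granule, read 3092 in memory and 4614 in naive. Its log2 ratio of -0.58 changed sign after quantile normalization (0.16) and after lowess (0.26). Calr, a chaperone also stored in cytotoxic granules, read 1063 in memory and 2097 in naive. Its ratio of -0.98 was the nearest to a call and lay between -0.98 and -0.83 under the other settings. Its second probe set was under the floor on both arrays. Lamp1, a membrane protein of lysosomes and granules that is exposed on the surface on degranulation, went the other way, with 2432 in memory and 1366 in naive and a log2 ratio of 0.83 from a sequence-family probe set (0.83 to 0.98 under the other settings). The receptor M6pr, which routes granzymes to the granule, read 596 in memory and 723 in naive, for a ratio of -0.28. Srgn, Calr and M6pr were thus on the same side as Gzma as reported, and Lamp1 was not.

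**Figure D4:**
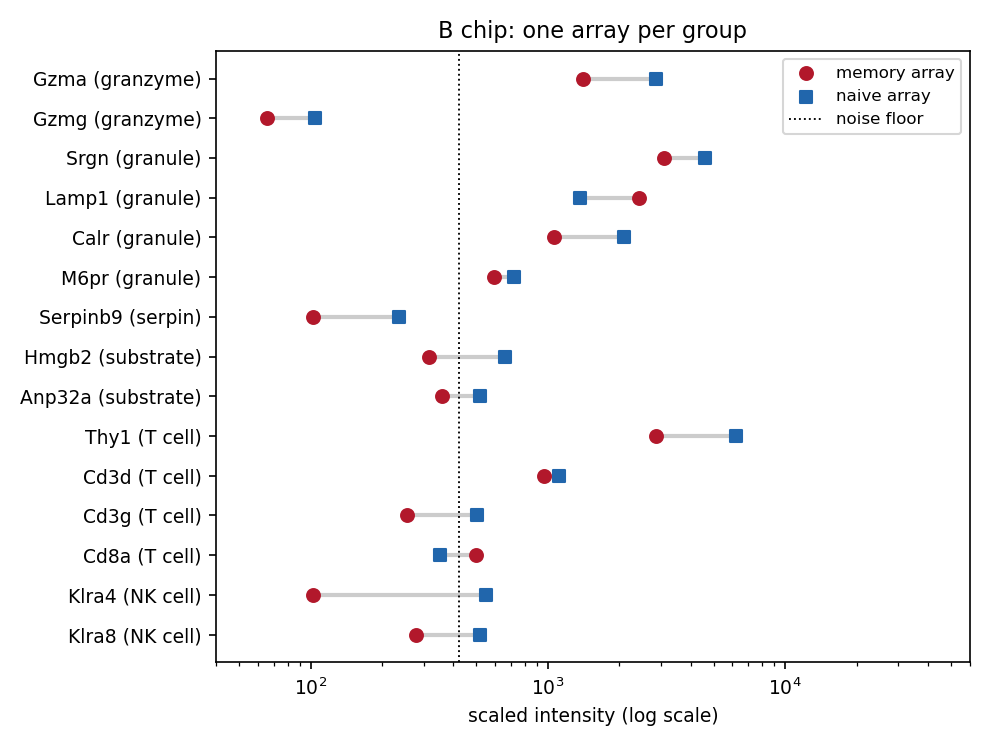
Scaled intensity (horizontal axis, log scale) on the memory array (circles) and the naive array (squares) of the B chip for Gzma, Serpinb9 and genes of related lists, with the brightest probe set of each gene and the floor of 423 as a dotted line. Gzma, Calr, Thy1, M6pr, Cd3d and Srgn read lower in memory with both arrays above the floor. Srgn changes sign after quantile normalization and lowess. Lamp1 is higher, and Gzmg and Serpinb9 lie under the floor on both arrays.

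On the memory A array 5 of 9 probe sets of the same granule list were above the limit, against 26.7% of all gene probe sets. The brightest were the lysosomal protease Ctsb at 1939, Lamp1 at 1581 and the vesicle fusion protein Vamp8 at 1294. Stxbp2, which is needed for granule fusion, read 240, and Lyst, which shapes the granules, read -4. Among death ligands and receptors 4 of 12 probe sets were above the limit, against the same 26.7%. These were the lymphotoxin chain Ltb at 1023, the tumour necrosis factor receptors Tnfrsf1a at 391 and Tnfrsf1b at 315 (another probe set of which read 42), and Fasl. The death ligands Tnf and Tnfsf10 read 23 and 19. The 2 probe sets of this list on the B chip, for Tnf and Cflar, were under the floor on both arrays.

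Substrates of granzymes could not be called on the B chip, since none reached the 846 needed on either array. Of 4 probe sets 2 were above the floor, both in naive alone, so that their ratios are bounds. Hmgb2, a nuclear protein that granzyme A cuts, read 317 in memory and 658 in naive, for a log2 ratio of -0.64, and with the floor halved it was called lower at -1.05. Anp32a, another protein of the complex granzyme A acts on, read 359 in memory and 518 in naive. On the memory A array 5 of 12 probe sets were above the limit, against 26.7% of all gene probe sets. Set, the inhibitor of the granzyme A-activated nuclease, read 1139 with one probe set and 163 with the other, the survival protein Mcl1 read 746, and the lamin Lmnb1 read 290. Bid, a member of the list that carries a death signal to mitochondria, read 1. The other serpins listed were under noise wherever they had a probe set: Serping1 read 200.5 in memory and 44.3 in naive, and Serpinb2 read 23.8 in memory and 72.5 in naive on the B chip.

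Of the T cell markers on the B chip, Cd3d and Thy1 were above the floor on both arrays. Cd3d read 959 in memory and 1115 in naive. Thy1 read 2848 in memory and 6184 in naive and was called lower at -1.12, a call that was lost with median-ratio, quantile and intensity-dependent scaling. Cd8a, the coreceptor that names the cells, read 498 in memory and 352 in naive, the naive value under the floor. Cd3g read 254 in memory, under the floor, and 502 in naive. Cd2 and Cd247 were under the floor on both arrays, with Cd247 at 168 in memory and 223 in naive. On the memory A array Cd3e read 317 and Cd247 read 240, above the limit of 184, and Cd5 read 110, under it. Over the 5 of 7 B-chip probe sets above the floor on 1 array or both, the median log2 ratio was -0.22, against -0.12 for all 1056 such probe sets. Of these 5, 1 was called lower and 0 higher, and only Cd3d and Thy1 were bright enough to be called. Of all probe sets that bright, 21.6% were called lower and 12.8% higher, so this count does not set the list apart.

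Macrophages also express Ctsc and Serpinb6a, so their markers are given here. On the B chip 7 of 13 macrophage probe sets were called higher in memory and 0 lower, and 6 were not called. Of all probe sets bright enough to be called, 12.8% were higher and 21.6% lower. Among the 7, those of Apoe and C1qb belong to the sequence-family class, and C1qb has more than 1 of them. The naive value of Apoe was under the floor. The number called higher lay between 5 with the floor doubled and 10 after quantile normalization. The summed level was 34041 in memory and 19465 in naive. Mpeg1 read 3665 in memory and 954 in naive, and the colony-stimulating factor receptor Csf1r read 2723 in memory and 1090 in naive. Among those not called, Vcam1 had a log2 ratio of 0.075, C1qc 0.25 and C1qa 0.82. On the memory A array 9 of 14 probe sets were above the limit, against 26.7% of all gene probe sets. The brightest were Hmox1 at 2228, the lysozyme Lyz2 at 2007 and C1qb at 1921. Granulocyte genes were bright as well, with S100a8 at 2483, S100a9 at 2162 and Ngp at 1811, while the granule proteases Ctsg, Elane and Prtn3, which cathepsin C also activates, read -108, 73 and 62. On the B chip none of 9 granulocyte and mast cell probe sets was called as reported, and only those of S100a8, Camp and Ltf were bright enough to be called. The others were under the floor on both arrays. After quantile normalization S100a8 was called higher at 1.03. The log2 ratio of Camp changed sign, from -0.67 as reported to 0.20 after quantile normalization and 0.25 after lowess. The summed levels of the list, 8046 in memory and 8890 in naive, include readings under the floor. Some genes of other blood cells had larger ratios than Gzma as reported, in both directions. One probe set of the globin Hba-a1 (the other was under the floor) read 2007 in memory and 11296 in naive, whereas Alas2, an erythroid enzyme that starts the haem pathway, read 1944 in memory and 183 in naive, under the floor. In all, 1 of 5 erythroid probe sets was called higher and 2 lower (1 lower after quantile normalization or lowess). The class II invariant chain Cd74 read 3068 in memory and 9507 in naive, whereas the class II chain H2-Ab1 read 2500 in memory and 1009 in naive, and these were the only calls among 9 probe sets of B and dendritic cells, that of Cd74 being lost after quantile normalization and lowess. The part of these cells in the Gzma ratio was not tested. The part of myeloid cells in the Ctsc, Serpinb9 and Serpinb6a readings was not tested.

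The single-symbol genes on the B chip nearest to Gzma in both arrays were Gadd45b, Rbck1 and Tra2b, by the distance between log2 levels over the 2 arrays and outside the sequence-family class. Gadd45b, a stress-induced gene, read 1509 in memory and 2270 in naive, at a distance of 0.34. Rbck1, a subunit of a ubiquitin ligase, read 1767 in memory and 2243 in naive, at a distance of 0.48. Tra2b, a splicing factor, read 1231 in memory and 1981 in naive, at a distance of 0.56. None of the 3 reached 2-fold, with log2 ratios of -0.59, -0.34 and -0.69.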

How the data were processed

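Trizol-isolated total RNA of memory and naive CD8 T cells was turned into cRNA and hybridised to Affymetrix arrays, per the labels' protocols. The authors deposited 1 intensity value per probe set and array, as whole numbers that include negative ones. Neither the labels nor the tables name the software behind these intensity values or a genome build. The trimmed means of the deposited values were close on all arrays (145.5 to 149.2), so they appeared to be scaled already. Scanner signals and detection calls were not used here.

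Samples were grouped by their titles, and all 4 columns were matched by name. Symbols came from the platform annotation, with members checked by Entrez number against the RefSeq gene table of assembly GRCm38.p6, and all 8 member probe sets kept their symbol. A single symbol was listed for 5560 probe sets of the A chip and 2001 of the B chip, several for 197 and 27, and none for 827 and 4567. No gene coordinates are given, because the arrays name no build. The 55 control probe sets per chip were left out.

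B arrays were scaled to a common 2% trimmed mean (factors 0.993 and 1.01). Lower values were raised to the floor before log2 ratios were formed, and such a ratio is a bound. On the A chip the limit was the same percentile of the memory array itself. With 1 array per group and chip, the number of arrays limits the precision and no test was run. Members, gene lists and settings were chosen with earlier results of these data known. Named genes were all member probe sets, list members called on the B chip, up to 3 of the brightest above noise per list and chip, and the 3 nearest patterns to a member above the floor on both arrays. Other genes are examples chosen after their values were seen, and not every gene the rule allows is named. The alternatives were other scalings, floors, size thresholds and probe set classes. Analyses used Python 3.11.15, pandas 2.3.3 and statsmodels 0.14.6 (lowess span 0.4 for the intensity-dependent normalization).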

Additional observations from a re-analysis of the deposited data

How the results depend on the processing

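No paired analysis was possible because each group had 1 array per chip and the labels carry no replicate numbers, and for the same reason no leave-one-out fit was made. The log2 ratio of Gzma was negative under all 6 alternatives. It was past 2-fold with the floor halved or doubled and not past it without scaling (-0.9985), with median-ratio scaling (-0.87), with quantiles equalised (-0.93) or with the lowess curve removed (-0.90), where 0 of the 2 member probe sets were called, against 1 as reported. The median log2 ratio of the probe sets above the floor on both B arrays was -0.15 as reported, 0 with median-ratio scaling, -0.040 after quantile normalization and -0.017 after lowess. The Gzma call passed the threshold by less than these shifts. The counts over the whole B chip, 67 higher and 113 lower, became 112 and 207 with the floor halved, 25 and 74 with it doubled, 109 and 185 at 1.5-fold, and 19 and 39 at 3-fold. The count lower was 73 after quantile normalization, and 54 after lowess, and without sequence-family probe sets 48 were higher and 45 lower. On the memory A array, 6 of the 6 member probe sets were above a limit of 92, 3 above the doubled limit of 368 and 3 above the 296 of the noisier array, against 4 as reported. The probe set that dropped out was that of Fasl in both cases. With the floor halved the Serpinb9 ratio on the B chip, not given as reported, became a bound of -0.16. The intensities give no detection call, so the level of Fasl, at 1.44 limits, is the least secure of the 4.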
